A study of Rattus norvegicus with 12 samples.

Results

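Rat aortic endothelial cells given exosomes of AS-Tspan8 tumour cells were set against the same kind of cells given exosomes of the parent tumour line AS. Exosomes are vesicles of endosomal origin that cells release, and they carry protein and RNA into other cells. Tspan8, also named D6.1A and CO-029, is a tetraspanin, a protein that spans the membrane and gathers integrins and other tetraspanins into patches, also on the exosome surface. The comparison used 4 of the 12 arrays of the series, chosen by their labels: EC with AS-Tspan8 exosomes (2 arrays) and EC with AS exosomes (2 arrays). Untreated EC (2 arrays) gave the level without exosomes. All 3 groups were EC of aorta from the BDX rat strain, starved overnight and then kept for 24 h in RPMI with 2% FCS. The exosome groups received 10 µg/ml of vesicles that the tumour cells had released over 36 h without serum. AS is a rat pancreatic carcinoma line, and AS-Tspan8 is a derivative of it with stable Tspan8 expression. The contrast therefore compared exosomes of a parent and a derived line, and an effect of Tspan8 cannot be told apart from other differences between these lines. The labels do not say whether same-group arrays came from separate cultures, so the spread behind each p-value is that between these samples and may be technical.

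Summed signal was 10383650 to 12705558 on the 6 EC arrays, and 8563 to 8923 probes were detected (detection p under 0.01). Levels below are log2 intensities after background correction and quantile normalization, with 16 added, which shrinks differences of dim probes. Precision is limited by the number of arrays. The 2 arrays with AS-Tspan8 exosomes were the least alike, with a correlation of 0.972 across 9025 features, against 0.985 with AS exosomes and 0.986 in untreated EC. Replicate 1 minus replicate 2 had an SD of 0.518 on the log2 scale with AS-Tspan8 exosomes, 0.385 with AS exosomes and 0.370 in untreated EC. It passed 1 log2 unit in 497, 209 and 146 features, in the same order of groups. The label "endothelial" was checked against markers. Of 18 endothelial markers on the array, 14 were detected on none of the 6 EC arrays, among them Cdh5 (signals of 53.1 to 73.1), Vwf (55.5 to 74.7) and Nos3 (56.2 to 76.1), while Ramp2, Egfl7 and Clec14a were detected on all 6. Of 14 fibroblast markers, 12 were detected on all 6 arrays. Dcn, a small proteoglycan, gave signals of 22431.7 to 26661.2, while Col1a1 (118.7 to 310.2) and Pi16 (110.6 to 138.2) were dim. Of 20 epithelial and pancreatic tumour markers, 15 were detected on no array and 3 on all 6, among them Lcn2 (27447.9 to 30711.4). Of 13 mesothelial, adipocyte and pericyte markers, 7 were detected on no array and 2 on all 6, among them Msln (3123 to 4580.8). The cells are called EC, as labelled.

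The donor line's transgene was not detected in the recipient cells. The Tspan8 probe read 75.5 and 71.0 in EC with AS-Tspan8 exosomes, 82.2 and 79.0 in EC with AS exosomes, and 71.1 and 79.0 in untreated EC. None of these signals was well above background (detection p of 0.0848 to 0.355). The same probe read 2035.7 in AS-Tspan8 cells and 75.1 in AS cells, and only the AS-Tspan8 cells were above the detection limit. In the exosomes it read 87.6 and 89.2 in AS-Tspan8 exosomes and 96.2 and 83.6 in AS exosomes, so the signals overlapped. The probe was not above the limit on any of these arrays either. Its detection p was 0.0206 and 0.0267 in AS-Tspan8 exosomes and 0.0667 and 0.101 in AS exosomes. With the limit at a detection p under 0.05, it was detected on both arrays of AS-Tspan8 exosomes and on neither of AS exosomes.

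No gene's level differed between the exosome groups past the test. Of 9025 features, 6772 of them named genes, 0 (0%) had an adjusted p under 0.05 with limma, 51 (0.565%) had an unadjusted p under 0.05, and every gene named below had an adjusted p = 1. The fit with the replicate number as a block also called 0, with 188 features (2.08%) at an unadjusted p under 0.05. Groups did not overlap in 1599 features (17.7%), 880 of them higher with AS-Tspan8 exosomes (9.75%) and 719 lower (7.97%). Without scaling between arrays that split was 321 higher and 1443 lower, and the median difference of all features was -0.098, against 0.004 after quantile normalization.

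Same-numbered arrays were read as pairs, and the pairs gave different pictures of the AS-Tspan8 exosomes. Number 1 minus number 1 and number 2 minus number 2 share no array. Across 9025 features their log2 differences correlated at r = -0.145 (Spearman's rho -0.14), where features are not independent and all arrays were normalized together. The sign was the same in 4105 features (45.5%), of which 2071 were higher in both pairs (22.9%) and 2034 lower in both (22.5%). Other scalings gave r from -0.171 to -0.141 and a same-sign share from 45.5% to 51.7%. The 3009 dimmest features had r = -0.097 and the 3008 brightest r = -0.191. Differences were wider within number 2, with an SD of 0.331 and 134 features past 1 log2 unit, than within number 1, with an SD of 0.249 and 12 features. Past 0.5 in both pairs lay 79 features, and 64 of them had opposite signs. In 42 of these the AS-Tspan8 array was the higher in number 1 and the lower in number 2, and in 22 it was the reverse. Fat4, a giant cadherin, differed by 1.01 in number 1 and -0.97 in number 2. Usp18, an interferon-induced protease that removes Isg15, was not above background on 1 array of each pair. With that array at the floor of detection, its differences were -1.09 in number 1 and 0.079 in number 2, the smallest sizes these arrays allow. Both were chosen after their values were seen.

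**Figure D1:**
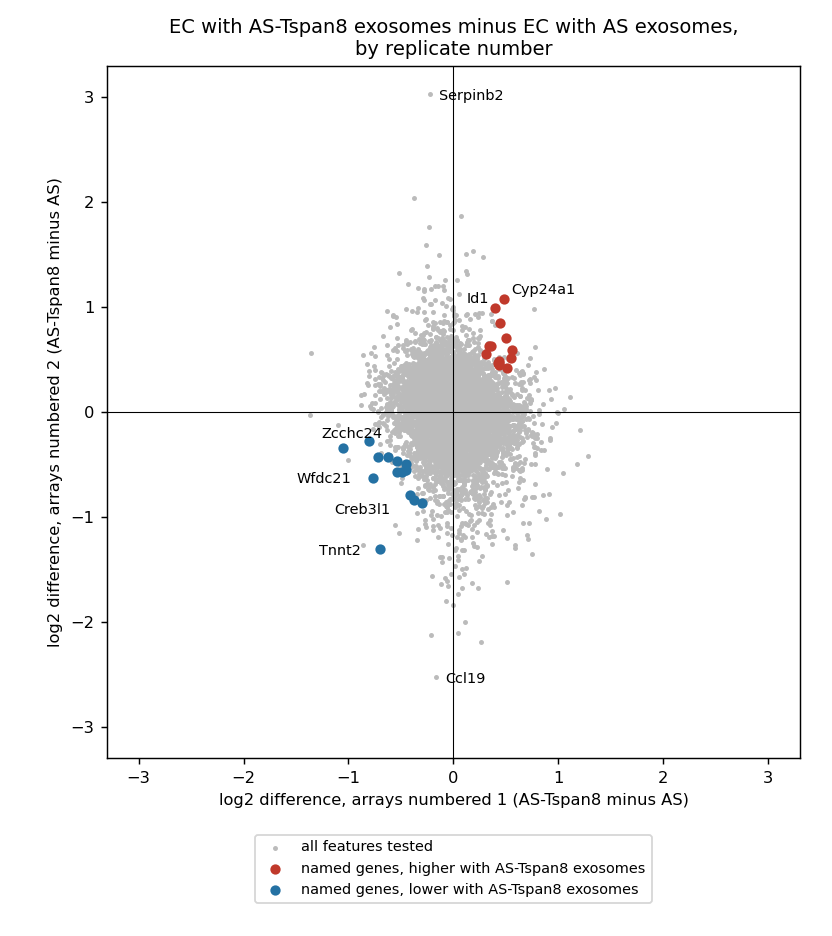
Log2 difference, EC with AS-Tspan8 exosomes minus EC with AS exosomes, within arrays numbered 1 (x axis) and within arrays numbered 2 (y axis), for 9025 features. Red and blue points are the 14 genes named as higher and the 14 named as lower, which were picked for agreement of the arrays. The cloud of all features is taller than it is wide and does not lie along the rising diagonal (r = -0.145). Serpinb2 and Ccl19 mark its upper and lower ends.

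Genes were named by a rule among those whose groups did not overlap and that were detected on both arrays of the higher group. The rule took the 8 of lowest unadjusted p in each direction and then the 6 with the largest difference in the less different pair. The agreement of their arrays is therefore how they were chosen, not a result. Higher with AS-Tspan8 exosomes by the lowest p was Id1, an inhibitor of bHLH transcription factors that BMP signalling induces. Id1 read 7.07 and 7.26 with AS-Tspan8 exosomes, 6.67 and 6.28 with AS exosomes and 6.81 and 6.63 in untreated EC (log2 levels). The difference was 0.69 ± 0.20 (log2 ± SE, n = 2 and 2), a fold of 1.62. Each SE in the text is from the fit without the replicate block. The photoreceptor cadherin gene Cdhr1 read 5.73 and 5.78 with AS-Tspan8 exosomes, 5.29 and 4.94 with AS exosomes and 5.30 and 5.08 in untreated EC. Its difference was 0.64 ± 0.19, and AS exosome array 2 was not above background. With that array at the floor of detection, Cdhr1 differed by 0.49 or more. Tut1, the uridylyltransferase of U6 RNA, read 5.77 on each AS-Tspan8 array, 5.34 and 5.30 with AS exosomes and 5.64 and 5.62 in untreated EC. After normalization the AS exosome arrays were thus the low ones. Plekhn1 read 5.81 and 6.13 with AS-Tspan8 exosomes, 5.45 and 5.50 with AS exosomes and 5.11 and 5.31 in untreated EC. After normalization all 4 exosome arrays thus lay above the untreated ones. Before background correction and normalization the signals of Cdhr1, Tut1 and Plekhn1 overlapped between the exosome groups. For Tut1 they were 104.8 and 99.6 with AS-Tspan8 exosomes and 106.2 and 93.2 with AS exosomes.

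The other genes higher by this rule were dim, except Ltbp1 and Dcaf4. Crabp2, which carries retinoic acid to its nuclear receptor, differed by 0.46 ± 0.18. Sephs1, of the selenophosphate synthetase family, differed by 0.46 ± 0.18 and Rcbtb1 by 0.43 ± 0.17. The Rcbtb1 signals before background correction and normalization overlapped, at 109.9 and 105.9 with AS-Tspan8 exosomes and 113.2 and 95.6 with AS exosomes. Fscn2, a retinal actin-bundling protein, was detected on both AS-Tspan8 arrays and on neither AS array. Before normalization its signals overlapped, at 97.3 and 91.9 with AS-Tspan8 exosomes and 101.9 and 82.7 with AS exosomes. After normalization its level was at least 1.21-fold higher. Such bounds set the mean of the brighter group against the floor of detection on each array of the dim group. Cyp24a1, which breaks down vitamin D, read 5.53 and 6.47 with AS-Tspan8 exosomes, 5.04 and 5.40 with AS exosomes and 5.31 and 5.68 in untreated EC (difference 0.78 ± 0.33). Cyp24a1 and Mtr were not above background on AS exosome array 1. With that array at the floor of detection, Cyp24a1 differed by 0.665 or more. Before background correction and normalization the signals of Cyp24a1 and Mtr overlapped between the exosome groups. For Cyp24a1 they were 97.2 and 131.6 with AS-Tspan8 exosomes and 97.8 and 95.8 with AS exosomes. Ptgs2, the inducible cyclooxygenase, read 6.67 and 7.03 with AS-Tspan8 exosomes, 6.17 and 6.32 with AS exosomes and 6.66 and 5.28 in untreated EC (0.60 ± 0.43). The untreated arrays of Ptgs2 thus lay further apart than the exosome groups. Ltbp1, which holds TGF-beta latent in the matrix, read 9.52 and 9.83 with AS-Tspan8 exosomes, 9.09 and 9.36 with AS exosomes and 9.32 and 9.11 in untreated EC (0.45 ± 0.20). Dock9, an exchange factor for Cdc42, differed by 0.56 in number 1 and 0.58 in number 2. Methionine synthase, Mtr, differed by 0.25 or more in number 1 and by 0.52 in number 2, and Dcaf4, a substrate receptor of a Cul4 ubiquitin ligase, by 0.44 and 0.45.

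Lower with AS-Tspan8 exosomes by the lowest p was Tnnt2, troponin T of heart muscle, which embryonic and cultured mesenchymal cells can also express. Tnnt2 read 6.17 and 5.80 with AS-Tspan8 exosomes, 6.87 and 7.11 with AS exosomes and 7.25 and 6.51 in untreated EC, a difference of -1.0 ± 0.28. Both AS-Tspan8 arrays were the lowest of the 6. Creb3l1, a membrane-bound transcription factor of the endoplasmic reticulum that drives collagen genes in bone, read 8.05 and 7.75 with AS-Tspan8 exosomes, 8.43 and 8.59 with AS exosomes and 7.94 and 8.14 in untreated EC (-0.61 ± 0.19). Here the AS exosome arrays were the high ones, and the untreated arrays overlapped with the AS-Tspan8 arrays. Zcchc24, a zinc finger gene, read 6.10 and 6.26 with AS-Tspan8 exosomes, 7.15 and 6.61 with AS exosomes and 6.61 and 6.59 in untreated EC (-0.70 ± 0.22). Wfdc21, a small secreted protein with a WAP domain, read 8.42 and 8.62 with AS-Tspan8 exosomes, 9.19 and 9.25 with AS exosomes and 9.20 and 8.60 in untreated EC (-0.70 ± 0.23).

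Among the others that were lower, Diaph3, a formin that builds actin filaments, differed by -0.58 ± 0.19. Dapp1, an adaptor that binds phosphoinositides, differed by -0.54 ± 0.19 and was not above background on AS-Tspan8 array 1. With that array at the floor of detection, Dapp1 differed by -0.49 or lower. Ror1, a receptor for Wnt5a, was detected on both AS arrays and both untreated arrays and on no AS-Tspan8 array, at least 1.24-fold lower. Crebl2 was at least 1.08-fold lower and the ligand gene Wnt6 at least 1.22-fold lower, each undetected with AS-Tspan8 exosomes. Crebl2 was also detected on no untreated array, and Wnt6 on 1 of them. With the AS-Tspan8 arrays at the floor of detection, Crebl2 differed by 0.02 in number 1 and -0.231 in number 2. Il1rn, the secreted antagonist of the interleukin-1 receptor, read 12.96 and 12.54 with AS-Tspan8 exosomes, 13.58 and 12.97 with AS exosomes and 13.24 and 12.54 in untreated EC (-0.52 ± 0.32). Its untreated arrays overlapped with the AS-Tspan8 arrays. Before background correction and normalization the Il1rn signals of the exosome groups overlapped as well. Gnao1, a G protein subunit, differed by -0.45 in number 1 and -0.56 in number 2, the phosphodiesterase gene Enpp4 by -0.72 and -0.43, and the secreted Lgi2 by -0.41 and -0.79.

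**Figure D2:**
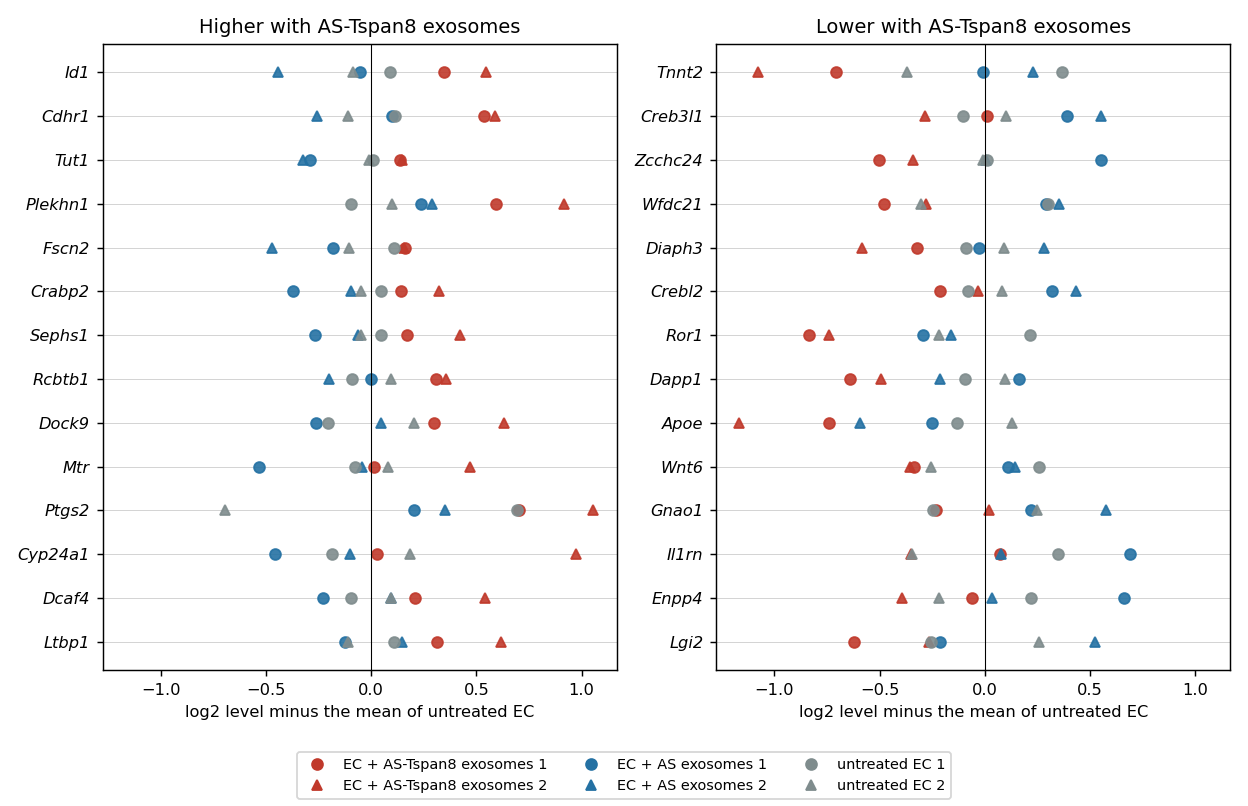
Log2 level minus the mean of untreated EC (x axis) on each of the 6 EC arrays for the 28 genes named by rule, 14 higher and 14 lower with AS-Tspan8 exosomes. Colours mark groups, and circles and triangles mark replicates 1 and 2. The red and blue symbols of each gene are apart because the rule required it, while the grey untreated symbols lie on either side or between them.

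Sterol synthesis genes encode the enzymes that build cholesterol from acetyl-CoA by way of mevalonate and squalene. When membrane sterol is low, SREBP-2 is released from the endoplasmic reticulum and turns them on together, and loading cells with sterol does the opposite. All 14 measured members of the 20 listed were lower on average with AS-Tspan8 exosomes, where 49.2% of all features were lower, with a median log2 difference of -0.42 against 0.004 for all features. None passed the test, and the exosome groups overlapped in every member. Idi1, the isomerase that makes the reactive isoprenoid unit, read 7.57 and 8.05 with AS-Tspan8 exosomes, 7.90 and 9.17 with AS exosomes and 8.29 and 8.34 in untreated EC (-0.73 ± 0.41). Dhcr7, which closes cholesterol synthesis, read 7.31 and 7.74 with AS-Tspan8 exosomes, 7.58 and 8.81 with AS exosomes and 7.50 and 8.22 in untreated EC (-0.67 ± 0.44). In both genes AS exosome replicate 2 was the highest of the 6 arrays. Nsdhl, which removes methyl groups from the sterol ring, read 8.80 and 9.41 with AS-Tspan8 exosomes, 8.94 and 10.28 with AS exosomes and 9.01 and 9.63 in untreated EC (-0.51 ± 0.47). Ebp, a sterol isomerase, read 9.85 and 10.02 with AS-Tspan8 exosomes, 9.95 and 10.48 with AS exosomes and 10.12 and 10.22 in untreated EC (-0.28 ± 0.22).

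Because these genes varied together over the 6 arrays, their promoters were examined. The windows run from 250 bases before to 50 after the start of the gene (RefSeq, GRCr8), and 11 of the 14 genes matched. They are shown for Idi1 and Dhcr7, the members that differed most, for Nsdhl, with the most CCAAT boxes, and for Ebp, with the only match to CACCCCAC. Idi1 lies on the minus strand at chr17:66547475-66547774 and Dhcr7 on the plus strand at chr1:208444184-208444483. Nsdhl lies on the plus strand at chrX:155817110-155817409 and Ebp on the plus strand at chrX:16971212-16971511. Capitals mark CCAAT, the element bound by NF-Y, and CACCCCAC, the core of the sterol response element SRE-1, on either strand (ATTGG and GTGGGGTG on the other).
Idi1: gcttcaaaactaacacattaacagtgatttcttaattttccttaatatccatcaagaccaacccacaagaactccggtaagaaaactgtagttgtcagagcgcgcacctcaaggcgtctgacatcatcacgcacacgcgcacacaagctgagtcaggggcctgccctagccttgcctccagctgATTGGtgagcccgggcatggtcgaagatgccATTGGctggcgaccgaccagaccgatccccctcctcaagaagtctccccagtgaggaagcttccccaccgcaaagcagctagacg
Dhcr7: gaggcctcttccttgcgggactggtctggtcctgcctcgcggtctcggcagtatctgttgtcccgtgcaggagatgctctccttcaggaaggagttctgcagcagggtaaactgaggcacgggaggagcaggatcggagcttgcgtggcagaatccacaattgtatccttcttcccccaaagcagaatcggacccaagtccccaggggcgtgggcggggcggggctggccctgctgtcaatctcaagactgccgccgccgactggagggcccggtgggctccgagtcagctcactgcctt
Nsdhl: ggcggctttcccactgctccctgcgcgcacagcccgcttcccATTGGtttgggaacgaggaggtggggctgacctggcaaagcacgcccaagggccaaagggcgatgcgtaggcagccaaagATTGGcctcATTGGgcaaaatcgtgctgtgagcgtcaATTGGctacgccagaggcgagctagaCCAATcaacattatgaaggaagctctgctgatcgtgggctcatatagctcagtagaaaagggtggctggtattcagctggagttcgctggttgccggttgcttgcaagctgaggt
Ebp: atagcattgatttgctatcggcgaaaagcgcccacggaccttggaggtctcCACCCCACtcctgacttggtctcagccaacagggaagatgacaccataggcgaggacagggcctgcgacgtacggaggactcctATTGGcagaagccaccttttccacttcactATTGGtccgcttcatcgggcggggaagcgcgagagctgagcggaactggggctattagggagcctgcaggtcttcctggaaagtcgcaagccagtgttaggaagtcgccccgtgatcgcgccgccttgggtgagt
A CCAAT box was found in 9 of 11 windows, against 38.4% of 5686 windows of tested genes and 37.5% of all 33469 rat windows. Nsdhl held 5, Idi1 and Ebp 2 each and Dhcr7 0. The GC box GGGCGG, searched on both strands, was found in 9 of 11 windows, against 64.5% of tested genes. The core CACCCCAC was found in 1 of 11, against 2.34%, and the full SRE-1, that core with AT before it, in 0 of 11, against 0% of tested genes and 0.125% of all windows. A match is a description of letters, and the absence of a match says nothing about binding.

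Across arrays the sterol synthesis list followed replicate number and AS exosome replicate 2. Relative to each gene's mean over the 6 arrays, the list's median was -0.59 and 0.18 with AS-Tspan8 exosomes, -0.41 and 0.94 with AS exosomes and -0.34 and 0.28 in untreated EC. Every group was thus higher in replicate 2, and AS exosome replicate 2 stood above all other arrays. The median difference was -0.15 within number 1 and -0.73 within number 2, and 10 of 14 members were lower in both pairs, against 22.5% of all features. Without AS exosome replicate 2 the list's median was 0.23, without AS exosome replicate 1 it was -1.17, and without AS-Tspan8 replicate 1 it was -0.14. Leaving out 1 array breaks a pair, so these medians also hold the difference between replicate numbers. The pair numbered 1, which does not use AS exosome replicate 2, had the smaller difference in the same direction. All 14 stayed lower on average under each scaling tried. Hsd17b7, a sterol ketone reductase, differed most evenly, by -0.46 in number 1 and -0.54 in number 2. The Δ14-reductase Tm7sf2 differed by -0.19 and -1.02 and the thiolase Acat2 by -0.21 and -0.98. Mvd, Sqle, Msmo1 and Pmvk were slightly higher in number 1 (0.02 to 0.08) and lower in number 2 (-0.87 to -0.42). Sc5d, Fdft1 and Fdps were lower in both, with mean differences of -0.42, -0.35 and -0.28.

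**Figure D3:**
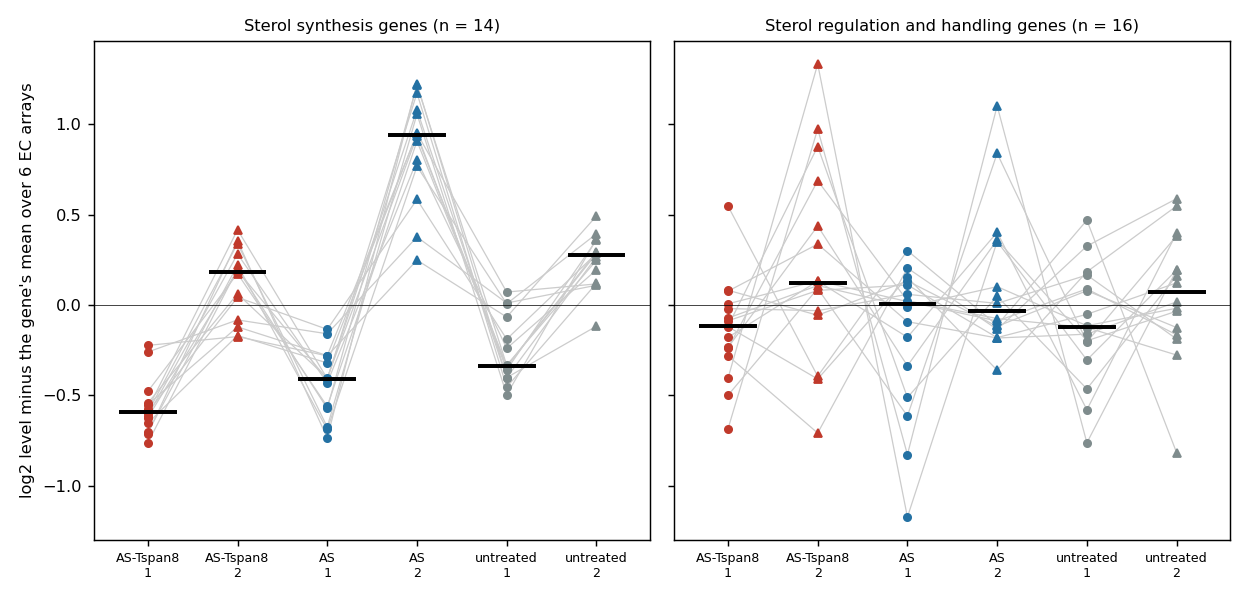
Log2 level minus the gene's mean over the 6 EC arrays (y axis) on each array for 14 sterol synthesis genes (left) and 16 sterol regulation and handling genes (right). Each point is a gene, grey lines join a gene's values and black bars are medians. On the left AS exosome replicate 2 stands highest (median 0.94), and replicate 2 lies above replicate 1 in every group, whereas the right panel shows no common order.

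Genes that sense, export or carry sterol showed a mixed pattern, with 9 of 16 higher and 7 lower and a median of 0.006. Abca1, the exporter that loads cholesterol onto apolipoprotein A-I and a target of the oxysterol receptor LXR, read 6.18 and 7.92 with AS-Tspan8 exosomes, 5.41 and 6.94 with AS exosomes and 6.28 and 6.78 in untreated EC. Its difference was 0.88 ± 0.68, with 0.77 in number 1 and 0.98 in number 2. Within each exosome group the Abca1 replicates lay further apart than the groups did. With the replicate number as a block, the SE of Abca1 was 0.298. Npc1, which passes cholesterol out of lysosomes, differed by 0.39 and 0.83 in the 2 pairs and the exporter Abcg1 by 0.17 and 0.52. Apoe, the lipoprotein that carries exported cholesterol and also an LXR target, went the other way. It read 9.57 and 9.14 with AS-Tspan8 exosomes, 10.06 and 9.72 with AS exosomes and 10.18 and 10.44 in untreated EC (-0.53 ± 0.23), so that both AS-Tspan8 arrays were the lowest of the 6.

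Fatty acid synthesis genes, which SREBP-1 controls, were lower on average in 11 of 11 measured members, with a median of -0.21. Within number 1 the median was 0.03 and within number 2 it was -0.38, and 3 members were lower in both pairs. Without AS exosome replicate 2 the list's median was 0.24 and without AS-Tspan8 replicate 1 it was 0.22. Acss2, which makes acetyl-CoA from acetate, differed by 0.08 in number 1 and -1.06 in number 2, and the elongase Elovl5 by -0.53 and -0.05. The acyl-CoA synthetase Acsl3 was lower in both pairs (-0.22 and -0.40). Of 18 fatty acid oxidation genes 7 were higher and 11 lower (median -0.03). Cpt1a, which admits fatty acids into mitochondria, differed by 0.51 in number 1 and 0.06 in number 2.

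Collagen genes differed in opposite directions in the 2 pairs. Fibrillar collagens give tissue its tensile strength, and type IV and XVIII collagens belong to basement membrane. Of 11 measured collagen genes 8 were lower and 3 higher on average (median -0.29), with a median of 0.37 within number 1 and -0.80 within number 2. Col1a1 read 7.70 and 6.24 with AS-Tspan8 exosomes, 7.77 and 8.04 with AS exosomes and 7.81 and 7.69 in untreated EC (-0.94 ± 0.44). AS-Tspan8 replicate 2 was the low array, while replicate 1 lay among the other 4. Col5a1 read 10.45 and 9.62 with AS-Tspan8 exosomes, 10.08 and 10.88 with AS exosomes and 10.19 and 10.80 in untreated EC, a difference of 0.37 in number 1 and -1.26 in number 2. Col18a1 (0.37 and -1.18), Col5a2 (0.37 and -1.14), Col1a2 (0.11 and -0.76), Col6a1 (0.22 and -0.80), Col4a1 (0.43 and -0.80) and Col3a1 (0.52 and -0.75) showed the same opposed signs. Without AS-Tspan8 replicate 2 the list's median was 0.01 and without replicate 1 of that group it was -0.74.

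Most genes that fold, hydroxylate, cross-link and export collagen were lower on average. Of 23 measured, 21 were lower on average and 7 had groups that did not overlap, all lower (7.97% of all features were lower in this way). Both pairs were lower in 12 of 23 (22.5% of all features), with medians of -0.02 in number 1 and -0.22 in number 2. The list's median was -0.12, and it was -0.011 without AS-Tspan8 replicate 2 and -0.26 without AS-Tspan8 replicate 1. Without scaling between arrays 17 of 23 were lower in both pairs, against 42.3% of all features, and with median centring 14 of 23, against 30.1%. Besides Creb3l1, P4ha2, a prolyl 4-hydroxylase subunit, read 9.78 and 9.63 with AS-Tspan8 exosomes, 10.07 and 9.97 with AS exosomes and 9.84 and 9.58 in untreated EC (-0.31 ± 0.18). As with Creb3l1, the untreated arrays lay beside the AS-Tspan8 arrays. P4ha3, another such subunit, differed by -0.03 and -0.87, and Lox, which cross-links collagen, by 0.20 and -0.77.

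Other matrix proteins were lower in 16 and higher in 10 of 26 (median -0.12, with 0.16 in number 1 and -0.40 in number 2, and 0.041 without AS-Tspan8 replicate 2). The small proteoglycan gene Ogn read 12.06 and 8.32 with AS-Tspan8 exosomes, 11.80 and 10.52 with AS exosomes and 11.86 and 11.30 in untreated EC. Replicate 2 was lower than replicate 1 in every group, most with AS-Tspan8 exosomes. The microfibril gene Mfap5 differed by -0.06 in number 1 and -1.66 in number 2, and Mfap4 by 0.05 and by -0.70 or lower. Mfap4 and Plau were not above background on AS-Tspan8 array 2, and a difference written with "or lower" sets such an array at the floor of detection. Vcan, a large proteoglycan of loose matrix, was higher in both pairs (0.79 and 0.30). Of 17 matrix proteases and inhibitors 9 were higher and 8 lower, and Mmp3, stromelysin, differed by -0.08 and 1.26. Plau, the urokinase gene, differed by -0.05 and by -0.16 or lower, Serpinf1, an antiangiogenic serpin, by -0.14 and -0.53, and the protease Ctsk by -0.25 and -0.36.

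Fibroblast markers and contractile genes were lower along with the matrix genes in number 2. In bulk RNA fewer cells of a type and less RNA per cell cannot be told apart. Of 14 fibroblast markers 10 were lower on average (median -0.32), with medians of 0.07 in number 1 and -0.83 in number 2, and 8 of the 14 also stand among the collagen or matrix genes above. The other 6 had medians of -0.086 in number 1 and -0.65 in number 2, with 4 of 6 lower on average. The summed normalized level of all 14 markers was 96457 and 91032 with AS-Tspan8 exosomes, 88782 and 106047 with AS exosomes and 91321 and 101092 in untreated EC. No marker was undetected on all arrays. Thy1, a surface glycoprotein of fibroblasts, read 8.01 and 7.36 with AS-Tspan8 exosomes, 8.13 and 8.36 with AS exosomes and 8.32 and 9.21 in untreated EC. Dpt, a small matrix protein, differed by -0.11 in number 1 and by -1.14 or lower in number 2, where the AS-Tspan8 array was not above background. Of 13 contractile genes 9 were lower (median -0.27, with -0.02 in number 1 and -0.70 in number 2). Their summed level was 9586 and 4096 with AS-Tspan8 exosomes, 8689 and 6812 with AS exosomes and 9564 and 6442 in untreated EC. Tagln, an actin-binding protein of smooth muscle, read 9.77 and 8.55 with AS-Tspan8 exosomes, 9.84 and 9.71 with AS exosomes and 9.86 and 9.54 in untreated EC. Csrp2 (-0.02 and -1.55) and the myosin light chain Myl9 (0.11 and -1.20) likewise differed in number 2. Without AS-Tspan8 replicate 2 the medians of the fibroblast and contractile lists were 0.011 and 0.046. The part of cell makeup in the matrix results was not tested.

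**Figure D4:**
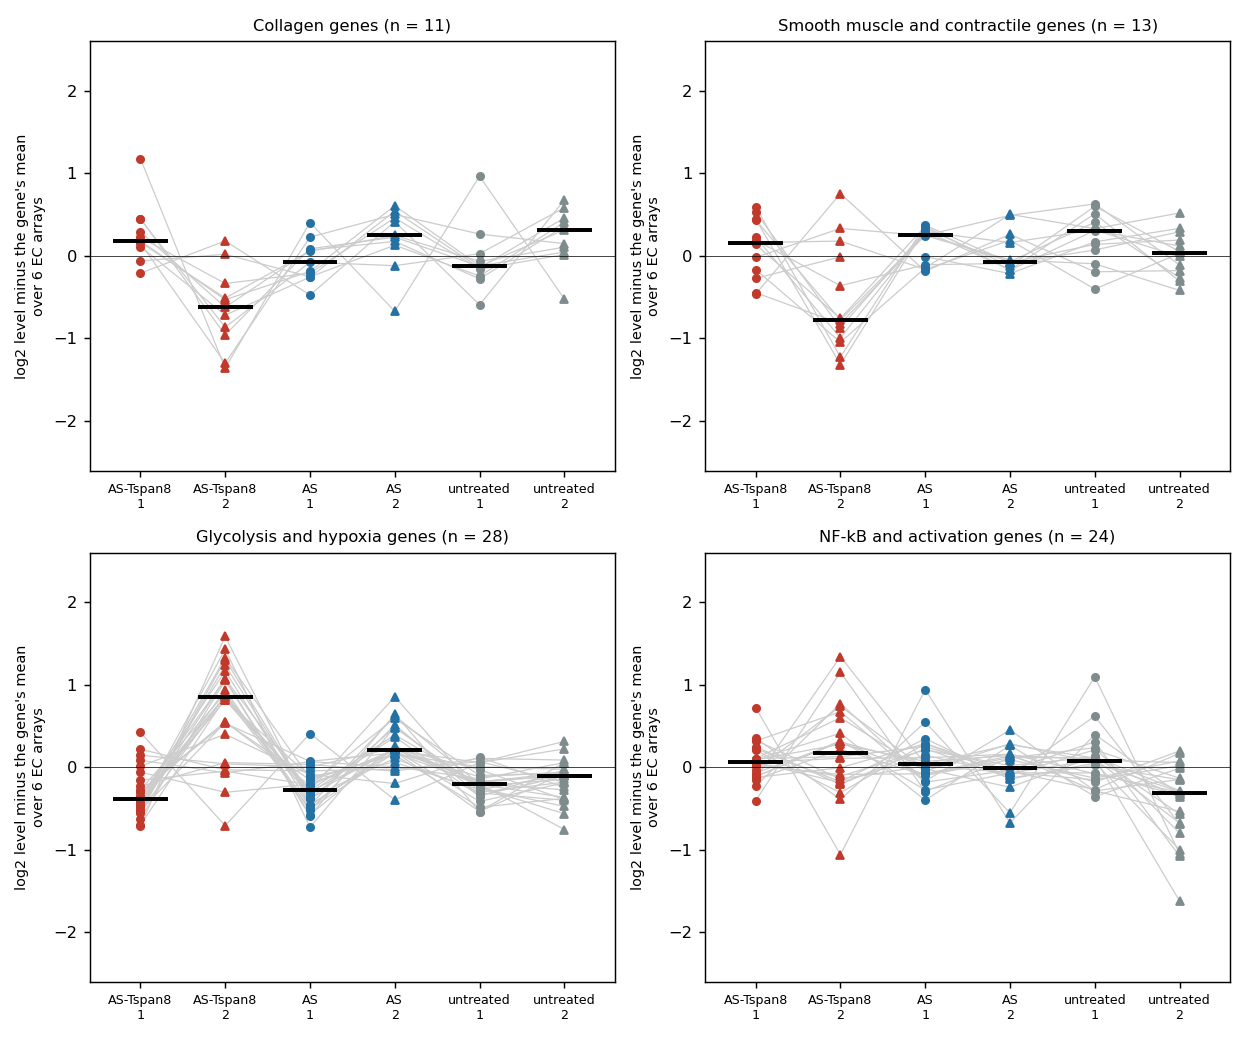
Log2 level minus the gene's mean over the 6 EC arrays (y axis) on each array for collagen, contractile, glycolysis and hypoxia, and NF-kB and activation genes. Each point is a gene and black bars are medians. In the first 3 panels EC with AS-Tspan8 exosomes replicate 2 stands apart, low for collagens (median -0.62) and contractile genes (-0.78) and high for glycolysis (0.85), while replicate 1 of that group lies with the other arrays.

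Glycolysis and hypoxia genes, many of them targets of HIF-1, were higher on average in 20 of 28 members (median 0.21, against 0.004 for all features), and this too rested on number 2. Their medians relative to the mean of the 6 arrays were -0.39 and 0.85 with AS-Tspan8 exosomes, -0.28 and 0.21 with AS exosomes and -0.20 and -0.11 in untreated EC. Pkm, pyruvate kinase, read 6.91 and 9.20 with AS-Tspan8 exosomes, 7.16 and 7.81 with AS exosomes and 7.08 and 7.54 in untreated EC. Hexokinase 2, Hk2, differed by -0.18 in number 1 and 1.20 in number 2. Hif1a itself differed by 0.19 and 0.67, and Ero1a, an oxidase of the endoplasmic reticulum that hypoxia induces, by 0.28 and 0.94. Without AS-Tspan8 replicate 2 the list's median was -0.36, without AS exosome replicate 1 it was -0.03, and without AS-Tspan8 replicate 1 it was 0.84.

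Unfolded protein and ATF4 response genes were higher in 21 of 28 (median 0.08, but -0.04 without scaling between arrays and -0.015 without AS-Tspan8 replicate 2). The pseudokinase Trib3 read 6.14 and 6.98 with AS-Tspan8 exosomes, 6.11 and 5.73 with AS exosomes and 6.28 and 5.64 in untreated EC (0.65 ± 0.35). Asparagine synthetase, Asns, differed by 0.84 and the stress factor Ddit3 by 0.86 in number 2, against 0.00 and -0.13 in number 1, while Nupr1, another stress-induced regulator, was lower in both (-0.30 and -0.77). Antioxidant and haem genes divided into 13 higher and 15 lower of 28. Haem oxygenase Hmox1 differed by -0.15 in number 1 and 1.20 in number 2 and the peroxidase Gpx1 by -0.44 and 1.22, whereas the aldehyde dehydrogenase Aldh3a1 was higher in both (0.32 and 0.53) and extracellular superoxide dismutase Sod3 lower in both (-0.27 and -0.44). Of 14 heat shock genes 11 were lower on average (median -0.11, and 0.028 without AS-Tspan8 replicate 2).

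Cell cycle genes were lower on average in 34 of 48 members (median -0.09), and 14 of 48 were lower in both pairs, against 22.5% of all features. Relative to the mean of the 6 arrays their medians were -0.41 and 0.15 with AS-Tspan8 exosomes, -0.37 and 0.37 with AS exosomes and -0.18 and 0.43 in untreated EC. Replicate 2 was again the higher in every group. Without AS exosome replicate 2 the list's median was 0.26 and without AS-Tspan8 replicate 1 it was 0.16. Prc1, which bundles the microtubules of the dividing spindle, read 6.71 and 7.43 with AS-Tspan8 exosomes, 7.11 and 7.96 with AS exosomes and 7.25 and 8.19 in untreated EC, so that within each number the AS-Tspan8 array was the lowest. Nusap1, a spindle protein, differed by -0.60 in number 1 and -0.32 in number 2, cyclin A2 (Ccna2) by -0.30 and -0.61, and the ribonucleotide reductase subunit Rrm2 by -0.27 and -0.46.

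Interferon response genes were lower on average in 23 of 30 (median -0.13), and 15 of 30 were lower in both pairs (22.5% of all features). This list leaned on number 1, with a median of -0.20 there and -0.02 in number 2. Irf7, which amplifies the interferon response, read 9.56 and 8.98 with AS-Tspan8 exosomes, 9.83 and 9.38 with AS exosomes and 9.29 and 9.41 in untreated EC (-0.33 ± 0.26). The class I histocompatibility gene RT1-A2 differed by -0.44 and -0.17, Ifi44 by -0.17 and -0.44, and Lgals3bp, a secreted glycoprotein that binds galectin-3, by -0.44 and -0.15. Without AS exosome replicate 1 the list's median was 0.045.

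Genes of endothelial activation encode adhesion molecules and cytokines that vessels make under inflammatory stimuli. Of 24 NF-kB and activation genes 14 were higher and 10 lower, and the median of 0.03 was -0.07 without scaling between arrays. Ccl2, a monocyte chemokine, read 10.45 and 11.23 with AS-Tspan8 exosomes, 10.47 and 10.24 with AS exosomes and 10.62 and 9.92 in untreated EC. Within number 1 its 3 arrays lay together, and within number 2 the AS-Tspan8 array was the highest. Ccl20 (-0.11 and 1.04) and the neutrophil chemokine Cxcl6 (-0.17 and 1.07) likewise differed in number 2. Of 18 immediate early genes 14 were higher on average (median 0.20, with -0.02 in number 1 and 0.34 in number 2, and -0.067 without AS-Tspan8 replicate 2). Among them Dusp6, a phosphatase that turns off Erk, differed by -0.03 and 0.72, Egr2 by -0.02 and 0.68 and Jun by 0.19 and 0.47, while the flow-sensitive factor Klf2 was lower in both (-0.26 and -0.61).

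Of 18 angiogenic ligands, receptors and partners 9 were higher and 9 lower. Ccr1, a chemokine receptor, read 5.71 and 8.51 with AS-Tspan8 exosomes, 6.09 and 6.47 with AS exosomes and 5.56 and 6.39 in untreated EC, so that AS-Tspan8 replicate 2 was far above the rest and replicate 1 among the lowest. Vegfa, the main vascular growth factor, read 7.24 and 9.04 with AS-Tspan8 exosomes, 7.58 and 7.86 with AS exosomes and 7.23 and 7.34 in untreated EC, the same shape. Vegfd, a growth factor of lymphatic vessels, was lower in both pairs (-0.41 and -0.49). Of 21 tetraspanins and integrins 9 were higher and 12 lower. Itga8, an integrin of mesenchyme, was lower in both pairs (-0.35 and -0.97), as was Tspan14 (-0.23 and -0.51). Cd44, the hyaluronan receptor, differed by -0.22 and 1.17, and Itga1, a collagen receptor, by 0.70 and -1.17.

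BMP, TGF-beta and Id genes, a list that holds Id1, differed in both directions. Of 27 measured 11 were higher and 16 lower (median -0.04), and groups did not overlap in 2 of 27, Id1 and Ltbp1, a smaller share than the 17.7% of all features. Tgif1, a corepressor of TGF-beta signalling, was higher in both pairs (0.31 and 0.30), and follistatin, Fst, differed by 0.04 and 0.43. Ltbp2 differed by 0.59 and -1.27, the BMP antagonist Chrd by -0.06 and by -0.79 or lower (not above background on AS-Tspan8 array 2), the receptor Acvrl1 by -0.11 and -0.53 and the ligand Bmp4 by 0.21 and -0.83.

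**Figure D5:**
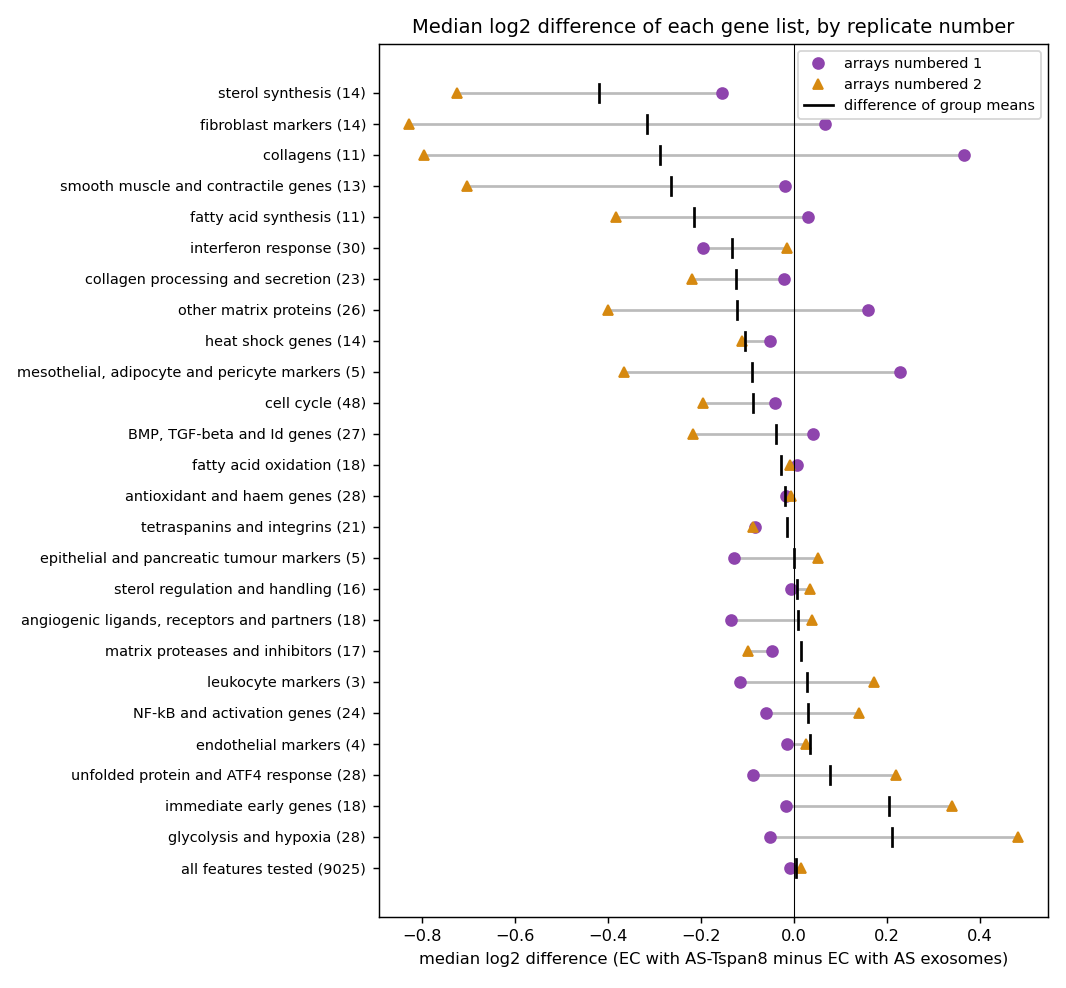
Median log2 difference, EC with AS-Tspan8 minus EC with AS exosomes (x axis), of 25 gene lists and of all 9025 features, with the number of genes tested in brackets. Circles are arrays numbered 1, triangles arrays numbered 2 and black ticks the difference of group means. Sterol synthesis lies lowest (-0.42) with both pairs below 0, while for collagens, fibroblast markers and glycolysis the 2 pairs lie on opposite sides of 0.

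Detection itself, which quantile normalization does not touch, switched in few of the 22523 probes on the array, all of which were counted here. With AS-Tspan8 exosomes 48 features were detected on both arrays that were detected on neither array with AS exosomes, 28 of them named, and 12 of the 48 were detected on both untreated arrays. The reverse held for 42 features, 25 of them named, of which 13 were detected on both untreated arrays. With the limit at a detection p under 0.05 in place of 0.01, 157 features were gained with AS-Tspan8 exosomes and 51 lost. All these signals lay close to the limit. The brightest with AS-Tspan8 exosomes, the amino acid transporter Slc7a7, read 93.8 and 97.4 there and 101.1 and 89 with AS exosomes, at least 1.24-fold higher after normalization. Before normalization the signals of Slc7a7 overlapped between the groups. Ash1l, Ino80 and Mis12 (at least 1.21, 1.17 and 1.17-fold higher after normalization) and the receptor gene Erbb2 (at least 1.15-fold) were the next, beside Fscn2. Except for Fscn2 (94.6 against 92.3), their mean signals before normalization were not higher with AS-Tspan8 exosomes. These means were 94.7 against 94.8 for Ash1l, 93.0 against 96.0 for Ino80, 92.9 against 97.6 for Mis12 and 92.3 against 92.6 for Erbb2. Among those lost with AS-Tspan8 exosomes Ror1 read 82.4 and 78.2, against 110.8 and 103.5 with AS exosomes and 107.2 and 114.6 in untreated EC. The zinc transporter Slc39a1, Capn5, Gadd45gip1 and Traf3 followed Wnt6 (at least 1.17 to 1.20-fold lower).

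Probes not detected in untreated EC were classed by their detection in the exosomes, and 85 were detected on both arrays of AS-Tspan8 exosomes and on neither of AS exosomes. In EC these had a median log2 difference of -0.0069, 41 of them higher and 44 lower, and 0 of them were detected on both arrays of EC with AS-Tspan8 exosomes or on both with AS exosomes. The 15 probes detected in AS exosomes alone had a median of 0.0029. The 292 probes detected on all 4 exosome arrays had a median of 0.0118, and 0 of them were detected on both arrays with AS-Tspan8 exosomes and 1 on both with AS exosomes. Among 12474 probes that no exosome array detected, 19 were detected on both arrays with AS-Tspan8 exosomes and 27 on both with AS exosomes. At these signals a transfer that raised a transcript by less than the spread of background could not be seen.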

How the data were processed

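Total RNA of 12 rat samples went onto Illumina expression BeadChips with Cy3 as the only dye, per the labels. Per the file headers, the deposited values are a signal intensity without normalization and a detection p-value for every probe and array. The authors also deposited processed intensity values on a linear scale, whose arrays share nearly the same distribution. How they were made is not stated in the labels or headers, and they served as an alternative. Intensities of the 6 EC arrays were background corrected by normexp with negative controls inferred from the detection p-values, offset by 16, quantile normalized and taken to log2 (limma 3.58.1, R 4.3.3). Quantile normalization forces 1 distribution on all arrays, so a shift of most genes cannot be seen. Probes with detection p under 0.01 on at least 2 of the 6 arrays were kept, the brightest probe per gene, with 13793 of 22523 probes named by the platform annotation (13752 matched by gene ID) and unnamed probes on their own. Differences were fitted with lmFit and eBayes on 3 group means, so that untreated EC helped to estimate the spread, with Benjamini-Hochberg adjustment over all 9025 features.

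Genes were named by rule: 8 per direction of lowest p and 6 per direction by the smaller within-number difference, and from each of 25 lists up to 4 members with the largest difference (8 for collagens and BMP genes, all for sterol synthesis). Up to 6 switches of detection per direction were the brightest. The comparison, the lists and the rules were chosen with earlier results of these data known. Replicate numbers come from the sample titles. Deviations from group means correlated between same-numbered arrays at 0.555 (AS-Tspan8 and AS exosomes), 0.375 (AS-Tspan8 exosomes and untreated) and 0.495 (AS exosomes and untreated), so numbers were read as pairs. VEGF, which the treatment protocol names, is on no label of the samples analysed here.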

Additional observations from a re-analysis of the deposited data

How the results depend on the processing

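The count of 0 genes at an adjusted p under 0.05 (limma) held under all 17 settings tried, and the count at an unadjusted p under 0.05 ran from 21 to 664, the highest without AS-Tspan8 exosome replicate 1. The replicate block gave 0 calls, with 188 at an unadjusted p under 0.05, and changed no call. Without a filter on detection 5950 of 22067 features (27%) had groups that did not overlap, and 1363 to 1764 under the other settings. At detection p under 0.05, 157 features were switched on with AS-Tspan8 exosomes and 51 off. Fat4 differed by -0.029 without scaling between arrays. No other named gene changed direction under another scaling, background correction, offset, filter, probe rule, variance model or the authors' processed table. Leaving out 1 array at a time turned the direction of 60 named genes, and their log2 differences then ranged as follows; the cause was not tested. For sterol, fatty acid and cell cycle genes the ranges were Acat2 -1.39 to 0.19, Fdft1 -0.97 to 0.27, Fdps -1.01 to 0.45, Msmo1 -1.06 to 0.41, Mvd -1.40 to 0.56, Nsdhl -1.18 to 0.16, Pmvk -0.45 to 0.082, Sc5d -1.16 to 0.33, Sqle -1.18 to 0.55, Tm7sf2 -1.50 to 0.29, Acsl3 -0.81 to 0.18, Ccna2 -1.11 to 0.20, Nusap1 -1.06 to 0.14 and Rrm2 -1.04 to 0.30. For collagen and matrix genes the ranges were Col18a1 -1.11 to 0.30, Col1a2 -0.66 to 0.011, Col3a1 -0.77 to 0.54, Col4a1 -0.52 to 0.15, Col5a2 -0.78 to 0.013, Col6a1 -0.74 to 0.17, Lox -0.65 to 0.069, P4ha3 -1.09 to 0.18, Mfap4 -1.78 to 0.67, Ogn -2.84 to 0.90, Vcan -0.29 to 1.38, Mmp3 -0.30 to 1.48, Plau -0.90 to 0.11, Ctsk -0.72 to 0.11 and Dpt -2.47 to 0.99. For contractile, glycolytic, stress and antioxidant genes the ranges were Tagln -1.22 to 0.00012, Myl9 -1.42 to 0.34, Ero1a -0.33 to 1.55, Hif1a -0.15 to 1.02, Hk2 -0.42 to 1.44, Pkm -0.58 to 1.72, Asns -0.052 to 0.89, Ddit3 -0.052 to 0.78, Nupr1 -1.21 to 0.14, Gpx1 -0.50 to 1.29 and Hmox1 -0.23 to 1.29. For interferon, immediate early, chemokine and receptor genes the ranges were Ifi44 -0.76 to 0.14, RT1-A2 -0.73 to 0.11, Usp18 -1.23 to 0.43, Dusp6 -0.24 to 0.94, Egr2 -0.33 to 0.99, Jun -0.15 to 0.81, Ccl20 -0.31 to 1.24, Cxcl6 -0.29 to 1.18, Ccr1 -0.57 to 2.23, Cd44 -0.22 to 1.17, Itga1 -1.26 to 0.79 and Vegfa -0.48 to 1.32. For BMP and TGF-beta genes and those chosen after their values were seen the ranges were Bmp4 -1.66 to 1.04, Chrd -1.19 to 0.079, Fst -0.13 to 0.59, Ltbp2 -1.22 to 0.53, Ccl19 -3.49 to 0.80, Cyp2e1 -2.90 to 0.83, Fat4 -0.67 to 0.72 and Serpinb2 -0.42 to 3.23. Sterol synthesis genes had list medians from -1.17 to 0.23, collagens from -0.74 to 0.01 and glycolysis genes from -0.36 to 0.84 when 1 array was left out, whereas all 14 sterol synthesis genes were lower on average under every scaling. With 2 arrays a group, a left-out array leaves 1, which is assumed to vary like the others. Dim signals near the floor of detection limit the folds of Fscn2, Ror1, Wnt6, Crebl2 and the detection switches, and the ranges of Usp18, Plau, Mfap4, Dpt, Chrd, Mtr, Cyp24a1, Cdhr1, Dapp1 and Serpinb2, each not above background on 1 or 2 of the 4 exosome-treated arrays.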

Other observations

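The 3 genes below were among those that differed most within number 2, were outside the lists described and were chosen after their values were seen. A listed gene, Ogn, also differed widely there, by -2.19. Serpinb2, plasminogen activator inhibitor type 2, read 4.76 and 8.41 with AS-Tspan8 exosomes, 4.99 and 5.38 with AS exosomes and 4.76 and 5.23 in untreated EC (log2 levels), so AS-Tspan8 replicate 2 alone was high. Both arrays numbered 1 were not above background for Serpinb2. Ccl19, a chemokine of lymphoid stroma, read 12.14 and 7.86 with AS-Tspan8 exosomes, 12.31 and 10.39 with AS exosomes and 12.13 and 10.31 in untreated EC. The cytochrome P450 gene Cyp2e1 read 12.32 and 8.59 with AS-Tspan8 exosomes, 12.28 and 10.70 with AS exosomes and 12.02 and 11.32 in untreated EC. In both Ccl19 and Cyp2e1 replicate 2 was lower than replicate 1 in every group, and the gap was widest with AS-Tspan8 exosomes. None of the 3 passed the test (limma, adjusted p = 1), with differences of -1.35 ± 1.41 for Ccl19 and -1.04 ± 1.15 for Cyp2e1 (log2 ± SE, n = 2 and 2). No fitted difference is given for Serpinb2, and within number 2, where both arrays were above background, it differed by 3.03.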
